A study of Mus musculus with 22 samples.

Results

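The 39 genes described here encode the machinery that copies DNA, out of 24911 genes in each deposited table, and they were taken by name: origin licensing (10 genes), helicase activation (6), polymerases and primase (5), the sliding clamp and its loader (5), single-strand binding (3), Okazaki fragment joining (2), nucleotide supply (4) and checkpoint and control (4). All 39 were present in each table with a TPM above 0 in all 22 libraries. TPM is a transcript level corrected for gene length and library size, so it can be compared between genes. The study profiled poly(A) RNA of mouse cells and tissues beside chromatin accessibility, which was not analysed here, and each of its 22 groups held 1 library. The primary B cells were splenic B cells, which the labels describe as mature cells taken from C57BL/6J spleen by negative selection, and 6 cultures named for their stimulus. Of these, aBCD180 and aCD40+IL4 had no LPS (lipopolysaccharide, a bacterial B cell stimulus), and the others had LPS alone or LPS+IL4, LPS+IL21 or LPS+a-d-dextran. The T cells were total CD4+ T cells, activated non-Tfh cells (gated CD4+CD44+CXCR5-PD1-CD25-), Tfh (follicular helper) cells and Tfr (follicular regulatory) cells (gated CD4+CD44+CXCR5+PD1+CD25+), with 1 MUT and 1 unmarked library per population. A further library held ConA-activated CD4+ T cells, ConA being concanavalin A, a lectin that makes T cells divide. The other libraries were back skin, basophils, the brain regions sensorimotor cortex, putamen and medulla oblongata, and CH12, a mouse B lymphoma line represented by the single clone bc5. The labels do not say what MUT stands for, and they give no ages, doses or culture times. Nor do they say which libraries came from separate animals or cultures. With 1 library per group, the p-values below measure spread among libraries of unlike stimuli, brain regions or MUT labels, not among replicates. How much of that spread is technical is not known.

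A cell copies its DNA once per division. In G1 the origin recognition complex, Cdc6 and Cdt1 load the Mcm2 to Mcm7 ring onto origins. In S phase Cdc45 and the GINS proteins turn that ring into the moving helicase, and polymerases, clamp, ligase and nucleotide enzymes follow it. Resting lymphocytes are out of cycle and divide quickly once stimulated. Transcription of many of these genes is known to be controlled by E2F factors, which bind short GC-rich sequences near gene starts.

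RefSeq entries for the stretch from 250 bases before to 50 after the gene start (300 bases, GRCm38.p6) were matched to 31 of the 39 genes, and Mcm4, Gins1, Gins2, Gins4, Prim2, Pole, Rfc2 and Rmi2 had none. An E2F site was counted as TTTCCCGC, TTTGGCGC, TTTCGCGC or TTTGCCGC on either strand, in any entry of a gene. It lay in 14 of the 31 genes (45.2%), of which Lig1 and Mcm7 also had entries without it. Of all 27025 genes with an entry 2.6% held it, and of the 11621 that reached 5 TPM in any library 4.23% did. Licensing genes held it most often, 7 of 9. Of 39 other replication genes with an entry 10 held it, and of 15 mitosis genes 1 did. The CHR element (TTTGAA or TTCGAA on either strand), known from promoters of mitosis genes, lay in 6 of the 31 (19.4%). It lay in 11 of 15 mitosis genes and in 21.7% of all genes with an entry. The 4 stretches below, 5′ to 3′ on the gene's strand, lie upstream of the start, outside annotated exons. They set the ring genes Mcm5 and Mcm6, with the site, beside Mcm2 of the same ring and the helicase activation gene Mcm10, without it. Capitals mark E2F sites. In Mcm5 (209 bases) a pair of sites starting 153 and 149 bases before the start overlap, and in Mcm6 (250 bases) the first pair, at 110 and 106, overlap and another starts at 47. The Mcm2 and Mcm10 stretches (250 bases each) hold no match, which says only that these letters are not in this window.
Mcm5 (chr8:75109259-75109467, plus strand): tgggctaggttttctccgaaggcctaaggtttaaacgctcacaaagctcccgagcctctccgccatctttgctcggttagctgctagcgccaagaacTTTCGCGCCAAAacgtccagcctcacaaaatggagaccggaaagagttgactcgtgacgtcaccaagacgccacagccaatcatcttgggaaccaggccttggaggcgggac
Mcm6 (chr1:128359706-128359955, minus strand): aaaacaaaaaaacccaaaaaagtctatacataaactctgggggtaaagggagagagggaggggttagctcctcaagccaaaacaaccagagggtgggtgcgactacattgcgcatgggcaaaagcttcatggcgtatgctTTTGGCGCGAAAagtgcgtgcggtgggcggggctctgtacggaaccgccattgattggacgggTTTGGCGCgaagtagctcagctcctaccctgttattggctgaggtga
Mcm2 (chr6:88898781-88899030, minus strand): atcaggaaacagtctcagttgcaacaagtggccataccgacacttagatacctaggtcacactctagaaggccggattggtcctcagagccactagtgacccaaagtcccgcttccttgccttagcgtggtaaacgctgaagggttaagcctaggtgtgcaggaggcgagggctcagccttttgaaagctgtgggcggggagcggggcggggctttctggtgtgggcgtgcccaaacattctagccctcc
Mcm10 (chr2:5012792-5013041, minus strand): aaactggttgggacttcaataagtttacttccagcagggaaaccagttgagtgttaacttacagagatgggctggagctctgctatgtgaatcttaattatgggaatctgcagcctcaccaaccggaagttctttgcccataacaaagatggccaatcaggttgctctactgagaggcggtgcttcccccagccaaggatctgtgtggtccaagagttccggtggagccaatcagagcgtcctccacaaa

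Depth ran from 30.8 M to 147.9 M expected counts per library, with a median of 46.2 M. The lowest count of any of the 39 genes was 6, for Orc1 in medulla (exact Poisson 95% interval 2.20 to 13.1, counting error only), and the lowest in splenic B cells was 207, also for Orc1 (179.8 to 237.2). Defining markers fitted the labels: summed over 8 genes, B cell markers were 2208 to 12170 TPM in the B lineage libraries, and T cell markers were 3043 to 7153 TPM in the 9 T libraries against at most 213.0 TPM elsewhere. Neuron markers summed to 3916 to 8617 TPM in the brain regions, and keratinocyte markers to 8226 TPM in skin. Markers of other cells were present too. Splenic B cells held Lyz2 at 97.7 TPM and Csf1r at 60.5 TPM, both myeloid, against at most 11.6 and 0.59 TPM in the 6 cultures. Summed over 6 erythroid markers, splenic B cells were at 1079 TPM, LPS+IL4 at 4.03 and the other 5 cultures at 940.0 to 10330 TPM, highest with LPS+IL21. The basophil library held the basophil protease Mcpt8 at 13000 TPM and also the neutrophil genes Ly6g at 838.3 and S100a8 at 1172 TPM. Gene length minus effective length was 49.0 bases in splenic B, LPS+IL4, CH12 and ConA and 48.6 in the other 18 libraries. The part of these features in the results below was not tested. Whether a lower level in a bulk sample means fewer cycling cells or less RNA in each cell cannot be told apart.

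Across the 22 libraries the genes had their highest medians in 4 of the 6 B cultures and their lowest in brain and skin. Their median level was 24.5 TPM in splenic B cells, 51.5 TPM with aCD40+IL4, 65.4 with LPS+IL4, 81.9 with LPS+IL21, 84.2 with LPS, 120.9 with LPS+a-d-dextran and 128.8 with aBCD180. CH12 stood at 74.0 TPM, ConA T cells at 48.1 and basophils at 36.1. Total CD4+ T cells were at 15.9 TPM (MUT 15.8), non-Tfh cells at 20.1 (MUT 18.2), Tfh cells at 36.0 (MUT 49.7) and Tfr cells at 53.2 (MUT 42.9). Skin stood at 7.20 TPM, putamen at 7.24, medulla at 4.34 and cortex at 4.38. Of the 39 genes 20 peaked in LPS+a-d-dextran and 17 in aBCD180, and the exceptions were Rmi2 (aCD40+IL4) and Rfc2 (basophils). The lowest library was cortex for 21, skin for 10, medulla for 7 and putamen for 1.

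**Figure D1:**
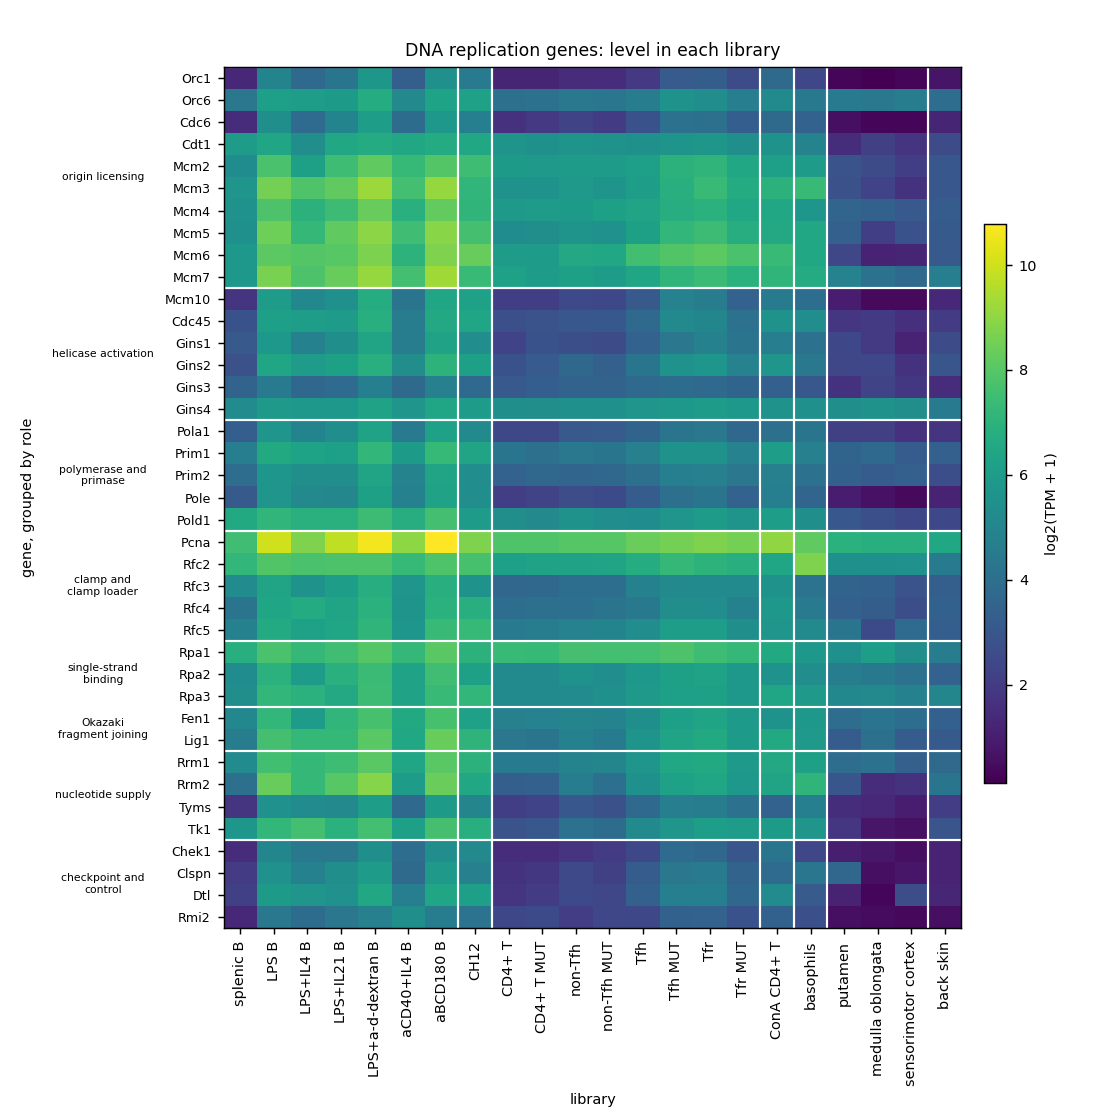
Level of the 39 genes (rows, grouped by role) in the 22 libraries (columns), as log2(TPM + 1) on the colour scale. The B cultures have median levels from 51.5 to 128.8 TPM, with CH12 (74.0) and Tfr (53.2) inside that range, and the brain regions and skin have the lowest medians, 4.34 to 7.24 TPM.

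Single libraries were compared with splenic B cells by a size rule without a test: log2(TPM + 1) at least 1 apart, with at least 5 TPM on the higher side. All these comparisons share the 1 splenic B library. By that rule 33 of 39 genes were higher with LPS (12.2% of all genes with 5 TPM on a side were), 29 with LPS+IL4 (12.7%), 32 with LPS+IL21 (10.0%), 35 with LPS+a-d-dextran (17.6%), 26 with aCD40+IL4 (7.56%) and 37 with aBCD180 (15.9%), and none was lower in any (16.3%, 24.6%, 25.0%, 29.2%, 11.3% and 23.1% of genes were, in the same order). The rule was met in all 6 cultures by 24 genes (2.72% of all genes), and by none in the lower direction (5.71%). The median difference was 2.39 with LPS, 1.75 with LPS+IL4, 2.14 with LPS+IL21, 2.89 with LPS+a-d-dextran, 1.45 with aCD40+IL4 and 2.89 with aBCD180, on the log2(TPM + 1) scale, while the median of all genes lay between -0.35 and -0.09. On TMM-scaled CPM (counts per library size, with the size adjusted by a trimmed mean of gene ratios between libraries) the counts lay between 26 and 37, while the share of higher among all calls went from 42.9% to 32.5% for LPS and from 34.1% to 48.9% for LPS+IL4.

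Of the licensing genes, Orc1 and Cdc6 were low in splenic B cells, and Cdt1 and the ring subunits were not. Orc1, the regulated subunit of the origin recognition complex, was at 1.47 TPM in splenic B cells and at 29.8 with LPS, 12.9 with LPS+IL4, 18.7 with LPS+IL21, 53.4 with LPS+a-d-dextran, 9.42 with aCD40+IL4 and 43.9 with aBCD180, which is 6.41 to 36.3 times higher. Cdc6, the loading ATPase, went from 1.77 TPM to between 13.4 and 65.2 TPM. All 6 cultures stood above splenic B cells for both genes. Cdt1, the partner of Cdc6, was already at 62.8 TPM in splenic B cells and lay between 84.2 and 102.9 TPM in 5 cultures, but at 41.8 TPM with LPS+IL4, below splenic B. The inhibitor of Cdt1, geminin (Gmnn), was at 23.0 TPM in splenic B cells and 60.7 to 224.8 TPM in the cultures. The ratio of Cdt1 to Gmnn was therefore 2.73 in splenic B cells, 1.45 with aCD40+IL4 and 0.31 to 0.73 in the other 5 cultures.

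The 6 ring subunits were close together in splenic B cells, from 39.5 TPM (Mcm2) to 55.6 (Mcm6), a ratio of 1.41. Mcm5 was at 43.5 TPM there and at 341.4 with LPS, 148.3 with LPS+IL4, 288.5 with LPS+IL21, 487.7 with LPS+a-d-dextran, 183.1 with aCD40+IL4 and 476.4 with aBCD180. Mcm3 reached 192.3 to 582.1 TPM, Mcm4 117.0 to 319.5, Mcm6 130.2 to 418.9 and Mcm7 192.0 to 608.3. All 5 met the size rule in each culture. Mcm2 did not, because LPS+IL4 held 71.5 TPM of it, while aCD40+IL4 held 154.1, LPS+IL21 177.0, LPS 211.1, aBCD180 247.8 and LPS+a-d-dextran 289.5. With LPS+IL4 the ring subunits thus spread over a ratio of 3.45, against 1.64 to 2.46 in the other cultures.

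Of the 6 helicase activation genes 5 were below the splenic B median of the 39 genes, and Gins4 was above it. Mcm10, which helps to start the helicase, was at 2.38 TPM in splenic B cells and at 62.3 with LPS, 33.6 with LPS+IL4, 43.5 with LPS+IL21, 106.0 with LPS+a-d-dextran, 17.8 with aCD40+IL4 and 83.1 with aBCD180, 7.46 to 44.6 times higher. Cdc45 went from 6.14 TPM to 24.3 to 113.5 TPM, and the GINS subunits Gins1 from 7.72 to 24.1 to 80.6 TPM and Gins2 from 5.84 to 41.4 to 128.8 TPM. The other two GINS subunits moved less: Gins3 went from 10.5 TPM to 12.4 to 26.7 TPM and Gins4 from 37.6 to 50.1 to 87.1 TPM, although all subunits belong to 1 complex.

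At the fork, Pcna, the sliding clamp, was the most abundant of the 39 genes in splenic B cells at 182.8 TPM. It stood at 1035 TPM with LPS, 428.8 with LPS+IL4, 865.4 with LPS+IL21, 1560 with LPS+a-d-dextran, 501.2 with aCD40+IL4 and 1769 with aBCD180. The polymerase genes Pola1 (8.96 TPM in splenic B, 21.4 to 75.6 in the cultures) and Pole (7.95, and 27.2 to 75.7) met the rule in each culture. Pold1 was high before stimulation, at 96.9 TPM, and reached 107.6 to 196.5 TPM. Its nearest coding neighbour, Spib, lies 657 bases away and was at 688.3 TPM in splenic B cells and 249.5 to 502.8 TPM in the cultures. Whether the counting used strand is not stated in the sources used here, and the part of Spib was not tested. Clamp loader genes other than Rfc4 (18.0 TPM, and 49.1 to 120.9) and the single-strand binding genes Rpa1, Rpa2 and Rpa3 did not meet the rule in each culture. Lig1, the ligase that joins Okazaki fragments, went from 23.6 TPM to 90.8 to 316.7 TPM.

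Enzymes of nucleotide supply and checkpoint genes had some of the largest differences. Rrm2, the small subunit of ribonucleotide reductase used in S phase, was at 15.7 TPM in splenic B cells and at 318.7 with LPS, 151.2 with LPS+IL4, 259.1 with LPS+IL21, 464.7 with LPS+a-d-dextran, 61.5 with aCD40+IL4 and 322.7 with aBCD180. Tyms, thymidylate synthase, went from 2.36 TPM to 12.7 to 67.3 TPM. Tk1, the cytosolic thymidine kinase, was at 52.1 TPM in splenic B cells and 69.0 to 200.4 TPM in the cultures. Of 4 genes that serve nucleotide supply outside S phase, 3 were lower in all 6 cultures. Rrm2b, the other small subunit of ribonucleotide reductase, was at 49.0 TPM in splenic B cells and 9.18 to 19.1 TPM in the cultures. Mitochondrial thymidine kinase Tk2 was at 123.5 TPM and 9.96 to 55.1 TPM, and mitochondrial Dguok at 72.1 and 21.6 to 54.1 TPM. Dck, the cytosolic deoxycytidine kinase, was at 51.5 TPM in splenic B cells, above that in 4 cultures (58.6 to 74.4 TPM) and below it with LPS+IL21 (48.5) and aCD40+IL4 (23.7). The ratio of Rrm2 to Rrm2b was 0.32 in splenic B cells and 3.22 to 38.8 in the cultures, and that of Tk1 to Tk2 was 0.42 and 1.25 to 19.5. Rmi2, part of the complex that resolves DNA junctions, was the gene highest with aCD40+IL4: it was at 1.52 TPM in splenic B cells, at 42.2 TPM with aCD40+IL4 and at 14.1 to 26.6 TPM in the other cultures.

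**Figure D2:**
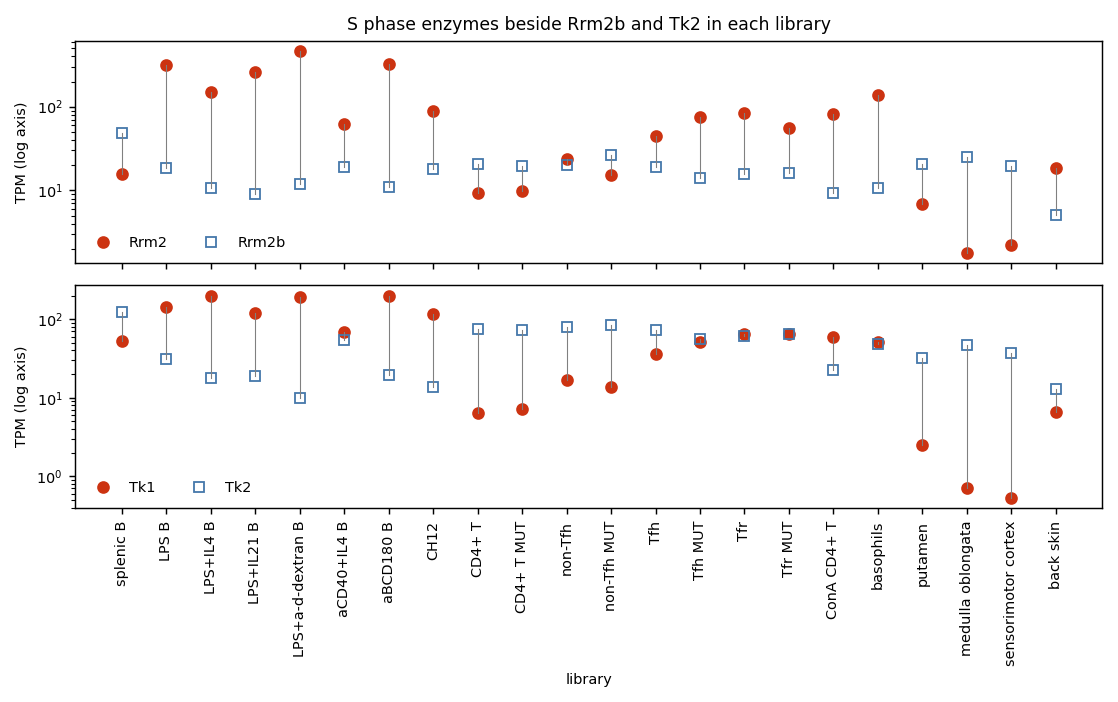
TPM (log axis) of Rrm2 beside Rrm2b and of Tk1 beside Tk2 in the 22 libraries, 1 point per library. Rrm2 lies below Rrm2b in splenic B cells (15.7 and 49.0 TPM) and above it in all 6 cultures, and Tk1 lies below Tk2 in splenic B cells (52.1 and 123.5 TPM) and above it in all 6.

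Among the cultures, those with IL4 were lowest: the lowest culture was aCD40+IL4 for 29 genes and LPS+IL4 for 10. Against the LPS culture, LPS+IL4 was lower for 37 of 39 genes, with a median log2 difference of -0.56 (all genes -0.20, and 37.8% of all genes were higher with LPS+IL4). Mitosis genes did not follow: all 18 were higher with LPS+IL4 than with LPS, by a median of 0.73, and their median level was 119.3 TPM with LPS+IL4 and 58.4 with LPS. With aCD40+IL4 it was 12.8 TPM, the lowest of the cultures, against 6.47 TPM in splenic B cells, and all 18 were above splenic B. The ratio of the mitosis median to the replication median was accordingly 1.82 with LPS+IL4, 0.25 with aCD40+IL4, 0.26 in splenic B cells and 0.49 to 0.86 in the other 4 cultures. LPS+IL21 was lower than LPS for 38 genes by a median of -0.27, close to the median of all genes (-0.20, with 69.6% of genes lower). LPS+a-d-dextran and aBCD180 were each higher than LPS for 38 genes, by 0.49 and 0.48 (44.6% and 46.8% of all genes were higher, with medians of -0.07 and -0.02). On TMM-scaled CPM, LPS+IL4 was lower than LPS for 24 genes, by -0.16 (all genes 0.20), and LPS+IL21 for 29, by -0.10 (all genes -0.04). On that scale LPS+a-d-dextran and aBCD180 were higher for all 39 genes, by 0.68 and 0.62 (all genes 0.11 and 0.12), all 18 mitosis genes were still higher with LPS+IL4 than with LPS, and the lowest culture was aCD40+IL4 for 35 genes and LPS+IL4 for 4. These pairs are of 1 library each and have no replicate check.

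CH12 cells lay inside the range of the cultures. By the size rule 31 of 39 genes were higher in CH12 than in splenic B cells (20.9% of genes) and none was lower (27.1%). CH12 was within the 6 cultures' range for 33 genes and below it for Mcm3 (142.3 TPM), Mcm7 (160.3), Pold1 (64.8), Pcna (417.7), Rfc3 (46.7) and Rpa1 (124.1). Against all 6 cultures at once no gene met the size rule, while 7.17% of all genes were higher and 2.84% lower (6.63% and 4.21% on TMM-scaled CPM).

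**Figure D3:**
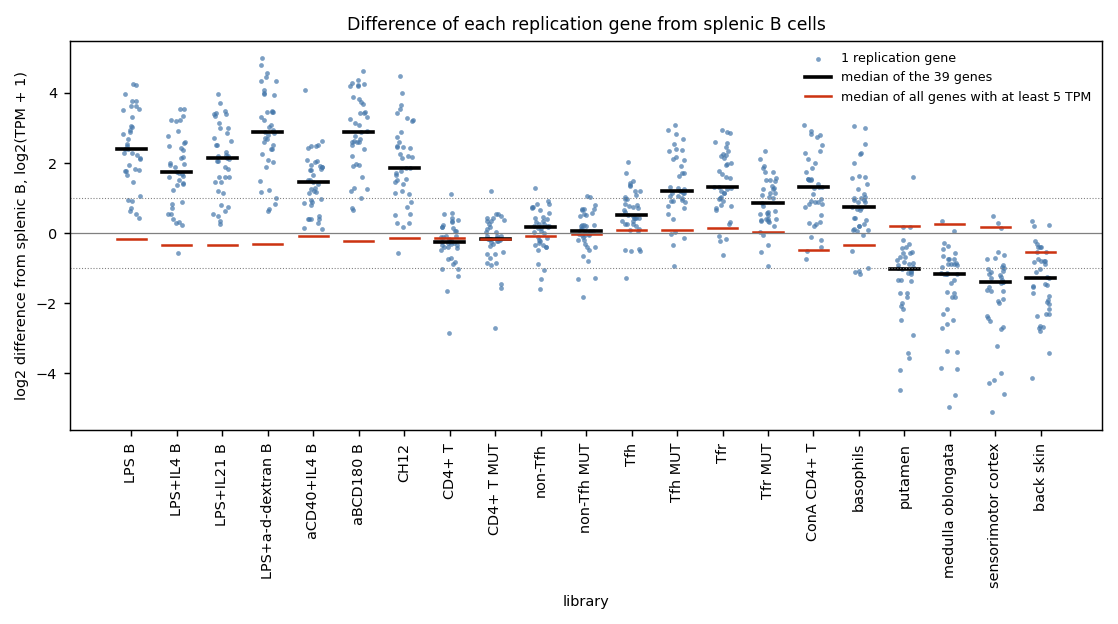
Difference from splenic B cells in log2(TPM + 1) for the 39 genes in each of the other 21 libraries. Medians lie between 1.45 and 2.89 in the 6 cultures and at 1.87 in CH12, near 0 in CD4+ T and non-Tfh cells, and between -1.40 and -1.02 in the brain regions and skin.

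A test across lymphocytes set the 7 stimulated libraries (6 B cultures and ConA T cells) against the 3 unstimulated ones (splenic B and both CD4+ T libraries), with lineage as a term. By edgeR's quasi-likelihood test with Benjamini-Hochberg adjustment over 13422 genes, 30 of 39 genes rose and none fell, where 8.1% of all genes rose and 5.99% fell. The median log2 fold change of the 39 was 2.42 (all genes 0.06, and -0.23 on the log2(TPM + 1) scale). Dtl, which targets Cdt1 for destruction, had the largest change, 56.1 ± 23.7 TPM (SD, n = 7) against 2.98 ± 0.54 (n = 3), a log2 fold change of 4.24 ± 0.50 (SE) with an edgeR adjusted p of 0.0119. Orc1 stood at 25.9 ± 17.1 against 1.38 ± 0.08 TPM (4.10 ± 0.74, edgeR adjusted p = 0.0138), and Mcm10 at 52.7 ± 32.7 against 3.03 ± 0.56 TPM (4.05 ± 0.79, edgeR adjusted p = 0.0163). Rrm2 stood at 236.9 ± 146.6 against 11.6 ± 3.5 TPM (3.92 ± 0.73, edgeR adjusted p = 0.0147). Chek1, the S phase checkpoint kinase, stood at 26.6 ± 11.3 against 1.84 ± 0.06 TPM (3.95 ± 0.49, edgeR adjusted p = 0.0119).

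By role, the count that rose was 7 of 10 licensing genes, 4 of 6 in helicase activation, 5 of 5 polymerase and primase genes, 4 of 5 clamp genes, 1 of 3 single-strand binding genes (Rpa3), 1 of 2 in Okazaki fragment joining (Lig1), 4 of 4 in nucleotide supply and 4 of 4 checkpoint genes. The 9 that did not pass were Cdt1 (log2 fold change 0.53 ± 0.32), Mcm2 (1.64 ± 0.65), Mcm4 (1.73 ± 0.55), Gins3 (0.85 ± 0.39), Gins4 (0.78 ± 0.28), Rfc2 (0.70 ± 0.24), Rpa1 (0.42 ± 0.43), Rpa2 (1.38 ± 0.50) and Fen1 (1.80 ± 0.53). Of 46 other replication genes 17 rose, among them Top2a (3.97 ± 0.58), the topoisomerase that untangles copied DNA, and Ticrr (3.45 ± 0.50), a helicase activation factor, and 1, Rad9a, fell by 0.87. The origin recognition subunits Orc2 to Orc5 were not among them, with log2 fold changes from -0.02 to 0.76. Of 17 E2F and pocket protein genes 8 rose (E2f1, E2f3, E2f7, E2f8, Tfdp1, Ccne1, Ccne2 and Ccna2), and all 18 mitosis genes rose. Rrm2b (12.8 against 29.7 TPM, log2 fold change -1.27 ± 0.25, edgeR adjusted p = 0.0171) and Tk2 (24.9 against 90.3 TPM, -1.78 ± 0.43, edgeR adjusted p = 0.0292) fell, and Dck (0.15 ± 0.41) and Dguok (-0.68 ± 0.30) did not pass. The myeloid genes Lyz2 (-3.07) and Csf1r (-5.68) also fell, and their part was not tested. The count of 30 dropped to 6 without splenic B, 7 without ConA, 9 without CD4+ T, 14 without CD4+ T MUT and 13 with the MUT label as a further term.

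**Figure D4:**
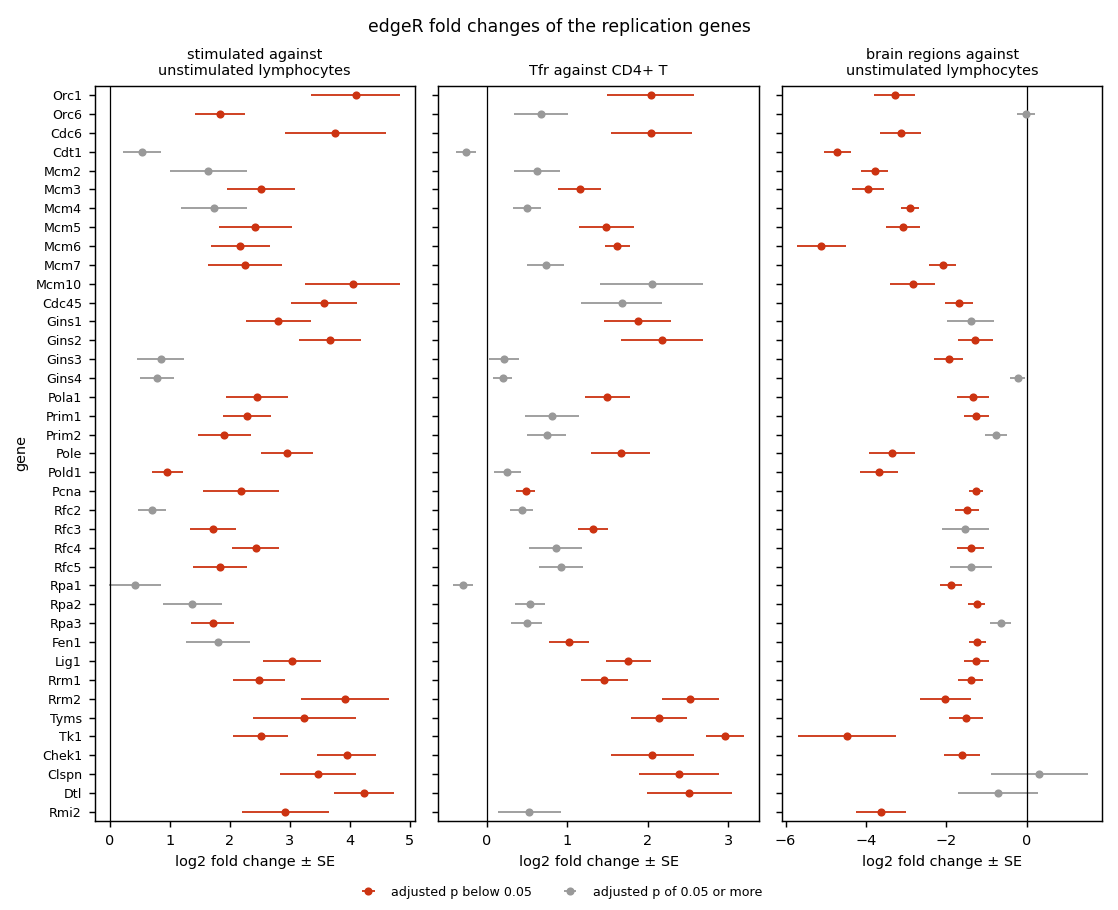
Log2 fold change with its standard error for the 39 genes in 3 edgeR comparisons: stimulated against unstimulated lymphocytes, Tfr against CD4+ T cells, and brain regions against unstimulated lymphocytes. Red points passed an adjusted p of 0.05, 30 of 39 in the first panel, 20 in the second and 30 in the third, where they are negative.

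In ConA-stimulated T cells 27 of 39 genes met the size rule against both CD4+ T libraries as higher (12.1% of genes) and none as lower (19.2%), with a median difference of 1.37. Orc1 was at 13.0 TPM against 1.35 and 1.33, Pcna at 524.3 against 228.2 and 232.8, and Tk1 at 60.0 against 6.37 and 7.14. Against splenic B cells 22 genes were higher in ConA cells (13.8% of genes) and none was lower (31.4%). The scale matters for ConA cells. On TMM-scaled CPM 32 genes were higher against both CD4+ T libraries (23.0% of genes, and 7.62% were lower), with a median difference of 1.96, and the median of all genes moved from -0.30 to 0.30. Against splenic B cells 30 were higher on that scale (25.8% of genes, and 16.6% were lower), with a median of 1.97 in place of 1.30, and the median of all genes moved from -0.49 to 0.17. None of the 39 was lower in either. Whether the response to stimulation differed between B and T cells was tested by an interaction term in the same 10 libraries, where the T side rests on 1 stimulated library. None of the 39 genes passed edgeR's quasi-likelihood test (0.712% of all genes did), 3 had an unadjusted p under 0.05, and DESeq2 called 1. In simulated counts this fit recovered 0% of 100 genes changed 2-fold and 0% of 100 changed 4-fold. Passing none therefore does not show equal responses. Of the 39 estimates 35 were negative (lower in T than in B cells), with a median of -0.74 (all genes -0.14) and all 10 licensing genes among them. The share of all genes with a negative estimate was not counted. With 1 stimulated T library, these signs do not show a smaller T cell response. The nearest to the threshold was Rmi2, at -2.93 ± 0.73 (edgeR adjusted p = 0.119). Tk1 went the other way, at 1.53 ± 0.77 (edgeR adjusted p = 0.411).

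Between CD4+ T cells and splenic B cells the median difference was -0.27 on the log2(TPM + 1) scale (all genes -0.14), and 13 of 39 genes were higher in CD4+ T cells (40.6% of all genes were). There none of the 39 genes was higher than in splenic B cells by the size rule (8.74% of genes were) and 5 were lower (15.2% of genes): Pole (3.36 against 7.95 TPM), Pold1 (41.1 against 96.9), Rfc2 (69.7 against 143.6), Rfc3 (11.4 against 37.8) and Tk1 (6.37 against 52.1). That share of the 39 is below the share of all genes. Rmi2 was at 4.42 and 4.77 TPM in CD4+ T and its MUT against 1.52, under the minimum of 5 TPM, and it met the rule as higher on TMM-scaled CPM. In CD4+ T MUT cells Pold1, Rfc3 and Tk1 were lower (15.8% of genes) and none was higher (8.16%). Both non-Tfh libraries also had these 3 lower (14.3% of genes, MUT 12.5%), and had Tyms higher (10.7% of genes, MUT 10.5%), at 7.25 and 5.81 TPM against 2.36. Against splenic B cells 9 genes were higher in Tfh cells (15.2% of genes), 25 in Tfh MUT (16.8%), 27 in Tfr (17.8%) and 18 in Tfr MUT (15.8%). Pold1 was lower in Tfh cells (11.4% of genes were), and no gene was in the other 3 (12.1%, 10.7% and 12.9%). On TMM-scaled CPM the counts were 8 for Tfh (11.6% of genes), 15 for Tfh MUT (12.6%), 18 for Tfr (12.8%) and 15 for Tfr MUT (14.1%), and Pold1 was lower in all 4. The share of higher among all calls went from 57.0% to 40.1% for Tfh, 58.0% to 38.1% for Tfh MUT and 62.4% to 41.3% for Tfr.

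Within the T cell populations the follicular cells carried more of the replication genes. The fit held 8 libraries, 2 per population, with the MUT label as a term. By edgeR's quasi-likelihood test with Benjamini-Hochberg adjustment over 13064 genes, 20 of 39 genes were higher in Tfr than in CD4+ T cells (16.8% of genes) and 14 in Tfh than in CD4+ T cells (15.3%), and none was lower (13.6% and 11.2%). Of the nucleotide supply genes 4 of 4 rose in both. Tk1 was at 65.6 and 64.7 TPM in Tfr and Tfr MUT, 36.0 and 51.2 in Tfh and Tfh MUT, 16.7 and 13.9 in non-Tfh and its MUT, and 6.37 and 7.14 in CD4+ T and its MUT, so that no populations overlapped. Its log2 fold change was 2.96 ± 0.23 for Tfr (edgeR adjusted p = 0.000852) and 2.40 ± 0.23 for Tfh (0.00172) against CD4+ T cells. Mcm6 was at 271.6 and 213.1 TPM in Tfr and its MUT, 185.8 and 237.9 in Tfh, 94.0 and 90.5 in non-Tfh and 63.4 and 62.4 in CD4+ T cells. Its log2 fold change was 1.62 ± 0.16 for Tfr (edgeR adjusted p = 0.00141) and 1.45 ± 0.15 for Tfh (0.00237). Rrm2 rose by 2.53 ± 0.36 in Tfr and 2.35 ± 0.35 in Tfh on the log2 scale. Cdt1 values overlapped, at 53.2 and 42.9 TPM in Tfr, 43.7 and 49.7 in Tfh and 49.3 and 43.3 in CD4+ T cells.

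Other cycle genes moved in these comparisons as well. Of 18 mitosis genes 13 rose in Tfh and 10 in Tfr against CD4+ T cells, and of 46 other replication genes 11 rose and 3 fell in each. On the log2(TPM + 1) scale the median of all genes was 0.26 for Tfh and 0.28 for Tfr against CD4+ T cells, where it was 0.03 and 0.02 in the edgeR fit. The counts moved with single libraries. For Tfr the count of 20 became 32 when either Tfh library was left out, 8 without either non-Tfh library, 7 without Tfr, 2 without CD4+ T and 3 without CD4+ T MUT. The Tfh count of 14 was 31 without Tfh, 6 without either non-Tfh library and 2 without either CD4+ T library, and it was 23 with DESeq2, 24 with limma and 22 without the MUT term.

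Against non-Tfh cells 12 genes were higher in Tfr by the same edgeR test (7.88% of genes) and none lower (6.71%). The 12 were Mcm3, Mcm5, Mcm6, Gins1, Pcna, Rfc3, Fen1, Lig1, Rrm1, Rrm2, Tyms and Tk1. In Tfh 3 were higher (4.03%) and none lower (2.56%), and these were Mcm6 (1.03 ± 0.15), Rfc3 (0.89 ± 0.18) and Tk1 (1.33 ± 0.22). No gene was called between non-Tfh and CD4+ T cells by edgeR (3.23% of genes were higher and 0.62% lower), with 4 at an unadjusted p under 0.05 and 1 called by each of DESeq2 and limma. Between Tfr and Tfh no gene was called by edgeR (0.107% of genes higher, 0.291% lower), with 2 at an unadjusted p under 0.05 and none called by DESeq2 or limma. For Tfr against non-Tfh cells DESeq2 called 24 higher and 1 lower (1773 and 1586 of all 13064 genes). The edgeR fit without the MUT term called 18 and 1 (1439 and 1272 of all genes). Rpa1 lay lower in both Tfr libraries, at 175.6 and 147.5 TPM against 198.0 and 193.8 in non-Tfh. The counts of 12 for Tfr and 3 for Tfh moved when single libraries were left out, as did those of all genes. Over these leave-outs the median log2 fold change for Tfr (1.035) lay between 0.74 (without Tfr) and 1.29 (without Tfr MUT). For Tfh the median (0.75) lay between 0.30 (without Tfh MUT) and 1.15 (without Tfh). The Tfh count of 3 was 18 with DESeq2 (1284 of 13064 genes higher) and 7 without the MUT term (867 of 13064). The count of 0 for non-Tfh against CD4+ T cells became 1 without Tfh, 2 without Tfh MUT and 7 without Tfh MUT and Tfr together. For Tfr against Tfh it became 2 without Tfh MUT and 5 without both.

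The unmarked and MUT libraries did not differ in the same direction in each population. In Tfh MUT all 39 genes were above Tfh (44.3% of all genes were), by a median of 0.74 on the log2(TPM + 1) scale (all genes -0.05), 10 of them by the size rule (5.34% of genes). In Tfr 38 genes were above Tfr MUT (65.1% of all genes were), by 0.59 (all genes 0.10), 2 of them by the size rule (3.36%). On TMM-scaled CPM these were 39 genes by 0.70 and 32 genes by 0.35 (all genes -0.09 and -0.15). The non-Tfh library lay above its MUT by 0.04 and CD4+ T MUT above CD4+ T by 0.07, and both turned round on TMM-scaled CPM (-0.01 and -0.04). B cell markers were higher in Tfh MUT and Tfr too. Summed over 8 markers they were at 711.2 TPM (Tfh MUT) and 510.1 TPM (Tfr), against 93.4 to 182.1 TPM in the other 6. The 18 mitosis genes had medians of 42.7 and 37.6 TPM there, 16.8 in Tfh and 16.7 in Tfr MUT. Without both libraries 19 genes were higher in Tfh (22.9% of genes) and 2, Cdt1 and Pold1, were lower (18.1%) against CD4+ T cells, and the median log2 fold change for Tfh was 0.54 in place of 0.91. For Tfr 30 were higher (25.7% of genes) and none lower (21.7%). The part of B cells in the T cell results was not tested further.

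**Figure D5:**
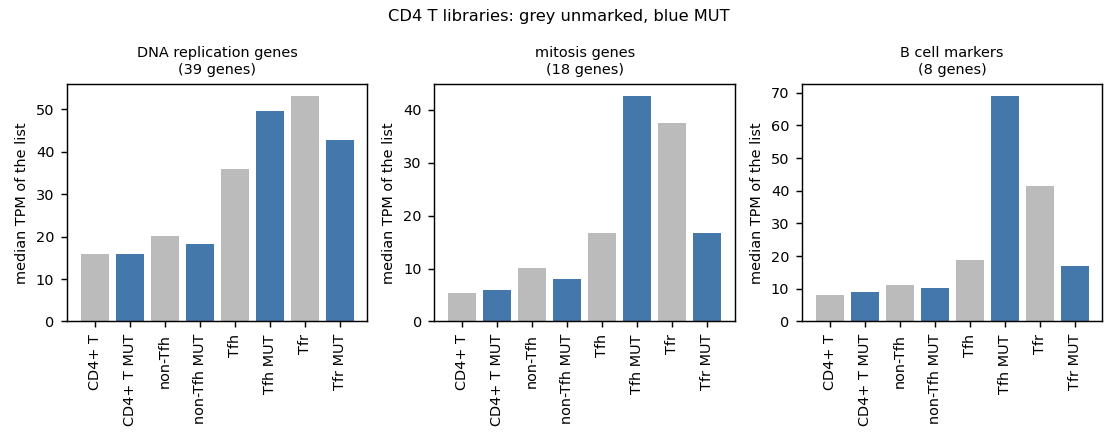
Median TPM of the 39 replication genes, 18 mitosis genes and 8 B cell markers in the 8 T libraries, grey for unmarked and blue for MUT. Tfh MUT and Tfr have the highest replication medians (49.7 and 53.2 TPM) and also the highest mitosis (42.7 and 37.6 TPM) and B cell marker levels.

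Basophils showed a mixed pattern. Against splenic B cells 13 genes were higher (18.5% of genes) and 4 lower (28.4%), the latter Cdt1 (28.8 against 62.8 TPM), Pold1 (42.4 against 96.9), Rfc3 (17.4 against 37.8) and Rpa1 (54.7 against 110.8). On TMM-scaled CPM none of these 4 met the rule and 19 genes were higher (22.0% of genes, and 23.5% were lower). Mcm3 was at 156.8 TPM, level with Tfr (156.0), and Rrm2 was at 138.6 TPM, above all T libraries (at most 83.7). Rfc2 was at 427.9 TPM, its highest level in the series, against 143.6 in splenic B cells. The coding gene nearest to it, Lat2, lies 1775 bases away and was at 1018 TPM in basophils and 256.6 in splenic B cells, and its part was not tested. Mitosis genes were all higher than in splenic B cells, with a median of 51.9 TPM.

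Brain regions held little of most replication genes. By edgeR's quasi-likelihood test of 3 brain regions against the 3 unstimulated lymphocyte libraries, over 15187 genes, 30 of 39 fell (30.7% of genes did) and none rose (36.7%). The 3 regions are not replicates of each other, nor are the 3 lymphocyte libraries. The median log2 fold change was -1.53, against 0.20 for all genes (0.41 with RLE size factors). Licensing genes had the lowest values, with 9 of 10 lower and a median of -3.21. Mcm6 was at 4.33 TPM in putamen, 1.29 in medulla and 1.36 in cortex, against 55.6 in splenic B and 63.4 and 62.4 in CD4+ T cells (log2 fold change -5.11 ± 0.61, edgeR adjusted p = 0.00096). Cdt1 was at 1.88, 3.45 and 2.31 TPM against 62.8, 49.3 and 43.3 (-4.71 ± 0.34, edgeR adjusted p = 0.000238). The sides were far apart for both.

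Orc6 and Gins4 were among the 9 that did not pass in brain. Orc6, an origin recognition subunit, was at 22.1, 20.3 and 23.8 TPM in putamen, medulla and cortex, against 19.3, 15.9 and 17.0 in splenic B and the CD4+ T libraries (log2 fold change -0.02 ± 0.23). Gins4 was at 42.9, 48.2 and 41.7 TPM against 37.6, 42.0 and 40.7 (-0.22 ± 0.18). Pcna passed the test as lower but was still at 110.1 to 123.1 TPM. The ring subunits fell unevenly, so that Mcm7 was 12.8 times Mcm6 in medulla. Clspn, a checkpoint mediator, was at 11.4 TPM in putamen against 0.51 in medulla and 0.71 in cortex. The proliferation marker Mki67 was also highest in putamen of the 3, at 4.46 TPM against 0.78 and 0.59, and 33 of 39 genes were higher in putamen than in cortex (51.0% of all genes were), by a median of 0.49 (all genes 0.01). Whether these go together was not tested.

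Against splenic B cells alone, 20 genes were lower in putamen (27.1% of genes), 18 in medulla (27.8%), 25 in cortex (28.8%) and 23 in back skin (37.7%). Clspn in putamen was the 1 gene higher (37.3% of genes in putamen, 38.6% in medulla, 37.2% in cortex and 26.4% in skin were). In skin Pcna, at 90.0 TPM, was at its lowest of all libraries. Rrm2 in skin was at 18.5 TPM, above splenic B cells (15.7) and all 3 brain regions (1.77 to 6.91).

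Counts of 10 genes hold a further uncertainty, limited to the bases they share with a neighbour. Orc1, Mcm7, Cdc45, Gins2, Rfc4, Rpa1, Fen1, Lig1, Tk1 and Dtl overlap another coding gene in the RefSeq annotation. Without a statement on strand, reads from the shared bases cannot be assigned to either gene. The overlap ran from base 108575705 to 108579336 for Orc1, but only from 191575540 to 191575544 for Dtl. Zswim9, the neighbour of Lig1, was at 0 TPM in all 22 libraries. The part of these overlaps in the counts was not tested.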

How the data were processed

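Poly(A) RNA of 22 mouse libraries was measured, per the labels' protocols from 0.5 M cells for cultured samples and with 50 sequencing cycles. The deposited tables give, per the file headers, an expected count (estimated reads per gene, not normalized) and a TPM per gene, which the authors scaled for gene length and depth, in the layout of RSEM. The submitters' processing notes name CASAVA 1.8.2, STAR, RSEM, bedtools and mm10. Their order and settings, and strandedness, are not given in the sources used here. Total expected counts were 30.8 M to 147.9 M, and 86.1% of them were whole (tolerance 1e-09). The rest were rounded.

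Groups came from the labels. The 39 genes and the other lists were chosen with earlier results of these data known. The text names the 39 genes except Prim1 and Rfc5, which enter only in counts, and genes of other lists where they were called in the comparison described or, without a test, with their level. Rad9a, Lat2, Spib and the genes singled out in the closing observations were picked after their values were seen. R 4.3.3 with edgeR 4.0.16 was used for the fits (TMM after filterByExpr, the quasi-likelihood test, Benjamini-Hochberg over all genes tested, threshold 0.05): 8 CD4 T libraries (population and MUT terms), 10 lymphocyte libraries (lineage and stimulation, and their interaction) and 6 libraries for brain. The scripts were tested on simulated counts holding 100 genes changed 4-fold. Of these, 77% were recovered for Tfh against CD4+ T cells, 51% for stimulation, 30% for brain and 0% for the interaction. Comparisons with 1 library on a side used log2(TPM + 1) with the size rule of 1 and a minimum of 5 TPM. Alternatives were RLE factors, no filter, DESeq2 1.42.0, limma 3.58.1 on log2(TPM + 1), other MUT terms, a pseudocount of 0.1, a minimum of 1 TPM, TMM-scaled CPM, a log2 difference of 2, and each library left out. Python 3.11.15 with numpy 2.4.6, pandas 2.3.3, matplotlib 3.10.9 and scipy 1.17.1 made tables and figures. Chromatin data and reads were not analysed here.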

Additional observations from a re-analysis of the deposited data

How the results depend on the processing

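Over the alternatives other than leaving out single libraries, 112 of the counts stayed within 1.5 times the reported one and 34 moved. Single-gene calls were tallied over all alternatives, these leave-outs included. Of them 1101 were still called, 335 kept their direction but were no longer called, and 0 reversed. For Tfh against CD4+ T cells the count of 14 was 23 with DESeq2, 24 with limma and 22 without the MUT term. For non-Tfh against CD4+ T cells it was 1 with each of these, and 7 without Tfh MUT and Tfr together. For Tfh against non-Tfh it was 18 with DESeq2, 7 without the MUT term and 15 without both libraries, for Tfr against non-Tfh 24 and 29 (DESeq2, both libraries out), and for Tfr against Tfh 5 without both. The stimulation count of 30 was 13 with a MUT term. These counts are of genes called higher, and DESeq2 also called 1 gene lower in Tfr than in non-Tfh cells. Leaving out 1 library gave 2 to 31 for Tfh and 2 to 32 for Tfr against CD4+ T cells, 0 to 2 for non-Tfh against CD4+ T, 0 to 31 for Tfh and 0 to 32 for Tfr against non-Tfh, 0 to 2 for Tfr against Tfh, 6 to 33 for stimulation, 0 to 0 for the interaction, 24 to 32 for brain, 24 to 29 for all 6 cultures and 0 to 0 for CH12 against them. The range for the interaction counts only genes with a positive estimate, and without LPS+IL4 1 gene was called with a negative one. Where a population kept a single library, its spread was taken from the other populations. The cause of these moves was not tested.

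At a log2 difference of 2 the size rule, stricter by construction, left fewer genes. Higher than in splenic B cells were 16 genes with LPS+IL4 (519 of 9883 genes) and 9 with aCD40+IL4 (175 of 9709). Also higher were 8 in all 6 cultures (36 of 10186) and 19 in CH12 (966 of 10243). In T cells 1 was higher in Tfh (743 of 10222), 11 in Tfh MUT (792 of 10316) and 12 in Tfr (857 of 10390). Tfr MUT had 2 higher (765 of 10254), ConA 10 (719 of 10131) and basophils 6 (1093 of 10298). Lower were 1 in CD4+ T, 1 in CD4+ T MUT, 8 in putamen, 11 in medulla, 12 in cortex and 11 in skin. Non-Tfh and its MUT had 0 in either direction. Against CD4+ T cells 11 were higher in ConA. On TMM-scaled CPM the Tfh MUT count of 25 was 15. On that scale, an alternative for pairs of libraries chosen after seeing the data, the median difference of non-Tfh from its MUT was -0.015 in place of 0.04 and that of CD4+ T MUT from CD4+ T -0.036 in place of 0.07. No paired analysis was possible because the labels give no replicate numbers. Depth limits the lowest genes, as Tk1 in cortex rests on 14 counts (95% Poisson interval 7.65 to 23.5).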

Other observations

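Pole2, the second subunit of the leading-strand polymerase, did not follow Pole. It was at 7.52 TPM in splenic B cells, 30.1 with LPS, 26.5 with LPS+IL21, 49.5 with LPS+a-d-dextran and 48.0 with aBCD180, but 103.7 with LPS+IL4 and 53.4 with aCD40+IL4, so the cultures with IL4 were the 2 highest. Pole was at 34.4 and 27.2 TPM in these. In CD4+ T cells Pole2 was at 22.7 TPM (MUT 21.8), above non-Tfh cells (10.1, MUT 10.6).

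E2f8, a repressor of the E2F family, was at 139.1 TPM in basophils, above the highest B culture (45.6 TPM with aBCD180) and all T libraries (0.91 to 13.1 TPM). E2f1, an activator, was at 29.1 TPM there and at 20.4 to 66.6 TPM in the B cultures. In cortex E2f1 was at 17.5 TPM and in putamen at 12.7 TPM, above splenic B cells (6.83 TPM).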
